A study of Mus musculus with 18 samples.

Results

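Control liver was compared with control brain in mice at the level of RNA. The comparison used 3 liver libraries and 3 brain libraries, chosen by their labels alone, which are 6 of the 18 libraries of a series that sequenced liver, brain and testis from control mice and from mice kept under chronic restraint stress. Both groups carry the treatment label control, so no library used here came from a stressed animal. The submitters describe the samples of a group as biological replicates, while genotype, strain, sex and age were not given in the sources used here. For the second group the tissue label is brain, whereas the extraction protocol names the hippocampus.

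The liver is built mainly of hepatocytes, which make most proteins of blood plasma, dispose of nitrogen as urea, convert cholesterol to bile acids, modify drugs and steroids, and release glucose and ketone bodies into the blood. Brain tissue holds neurons, which fire action potentials through voltage-gated channels and signal through vesicle release onto ligand-gated receptors, together with astrocytes, oligodendrocytes and microglia. Many steps of central metabolism are run in the 2 organs by different members of the same gene family. In whole tissue, fewer cells of a type and less RNA per cell cannot be told apart, which holds for every level given here.

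Depth was close across the 6 libraries, with 31870666 to 35100049 counts in liver and 32382648 to 36497096 in brain. Liver RNA was concentrated in few genes. The 10 most abundant genes took 25.67% to 26.72% of TPM (a transcript level corrected for gene length and depth) in liver and 10.85% to 12.64% in brain. Fewer genes had any count in liver, between 18869 and 19156, than in brain, between 23367 and 23651. Among genes with 1 to 20 counts, 68.6% to 70% of the values in liver and 60.4% to 61.2% in brain were even numbers.

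Fold differences between these tissues depend on how the libraries are scaled. Log2 differences are liver minus brain, from edgeR's quasi-likelihood test on counts scaled by the trimmed mean of M-values (TMM), which sets the bulk of genes level. Scaling by library size alone lowered the log2 difference of a gene by 1.04 at the median over all tested genes. TPM lowered it by 1.82 at the median, over only those tested genes above a minimum TPM. The median log2 difference of all tested genes was -0.33 under TMM, -1.37 with library size alone and -2.08 on log2(TPM + 0.1). A gene is called different here at an adjusted p under 0.05, and counts are also given for called genes that differ at least 4-fold. Of 17849 genes tested, 14290 (80.1%) were called, 6143 (34.4%) higher in liver and 8147 (45.6%) higher in brain. The same split was 3683 and 11387 with library size alone, and 2500 and 13524 on log2(TPM + 0.1). Of the genes called under TMM, 8146 of the 8147 higher in brain and 2500 of the 6143 higher in liver were called the same way under all 3 scalings. A named gene is described below as higher in liver only where both TMM and TPM place it there. Where they differ, both values are given. Counts of called members of lists and pairs are under TMM and can include members that TPM places in brain.

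At least 4-fold differences were common. Under TMM, 2952 genes (16.5%) were at least 4-fold higher in liver and 5263 (29.5%) at least 4-fold higher in brain, and for 14904 genes (83.5%) the 3 liver values and the 3 brain values did not overlap. The 4-fold sets were 1951 and 7157 genes with library size alone, and 1447 and 9214 on log2(TPM + 0.1). The TMM shares serve as the background for the lists. Of the tested genes, 1400 had no count in liver and 265 none in brain. Such a gene passed the filter on low counts through the other tissue alone, so its direction was fixed in advance. The same holds for such genes within each list and pair below. The liver set held 77.7% to 78.9% of all TPM in the liver libraries and 13% to 14.2% in the brain libraries. The brain set held 35.3% to 36.1% of TPM in brain and 0.4% to 0.5% in liver. Long intergenic noncoding RNAs leaned to brain, with 202 of 416 tested (48.6%) at least 4-fold higher there and 57 (13.7%) at least 4-fold higher in liver.

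**Figure D1:**
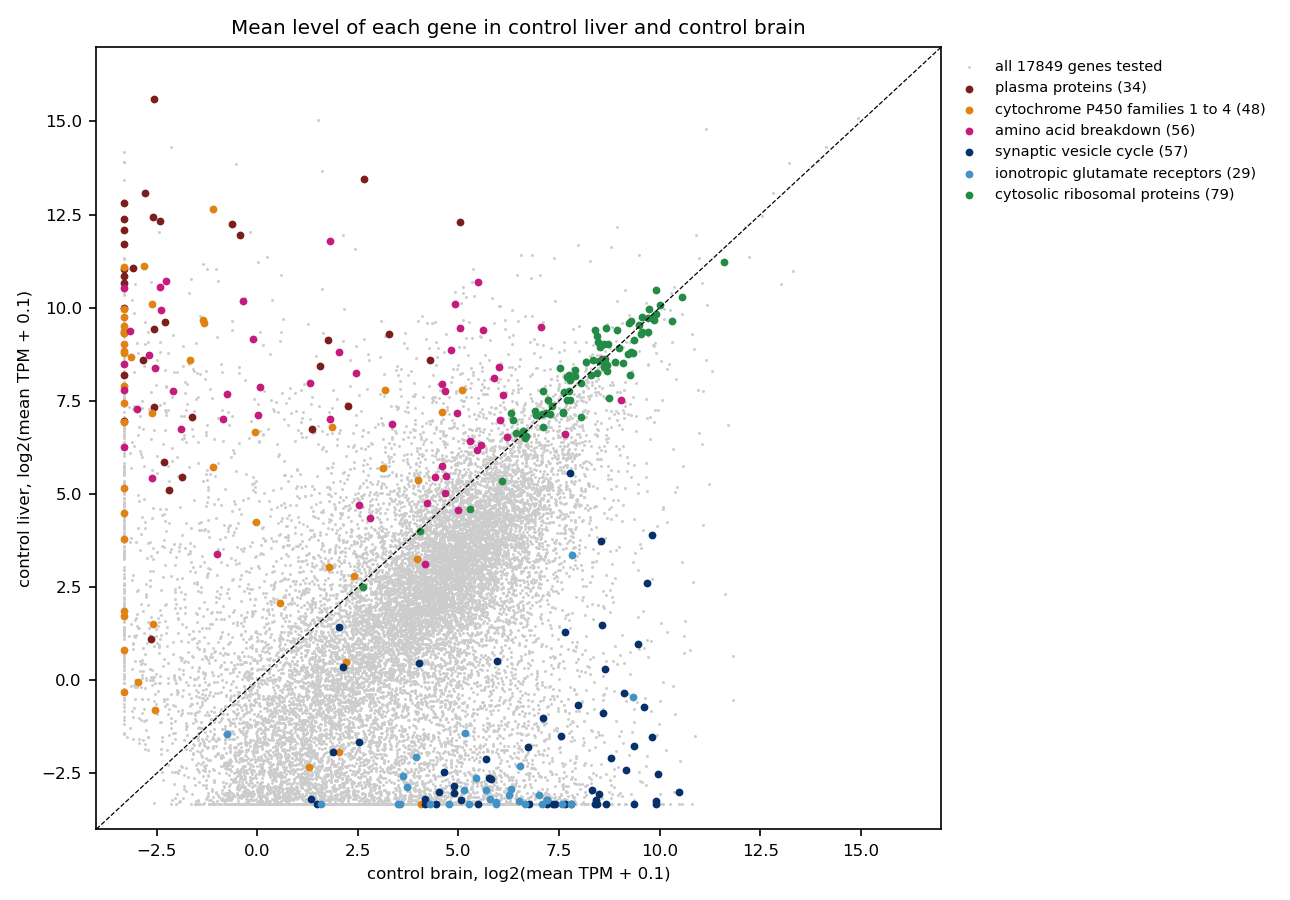
Mean TPM of each tested gene in control brain (x axis) and control liver (y axis), both as log2(mean TPM + 0.1), each mean over 3 libraries, with 6 gene lists in colour and the dashed line marking equal TPM. Plasma proteins lie far above the line, synaptic vesicle genes and glutamate receptors far below it, and ribosomal protein genes along it.

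Marker genes fitted the tissue labels, with a difference inside the brain group. The 10 hepatocyte markers summed to between 82200 and 100800 TPM in liver and to 3.54, 17.5 and 1.59 TPM in brain replicates 1, 2 and 3. In brain replicate 2 most of that sum was Ttr, the thyroxine carrier that hepatocytes and choroid plexus both make. The 10 neuron markers summed to between 4693 and 5505 TPM in brain and to between 2 and 2.29 TPM in liver. Cortex markers such as Tbr1 (102.8, 91.8 and 77.3 TPM in brain replicates 1 to 3) and Lamp5 (243.4, 184.6 and 148.9 TPM) were present, so the markers do not place the brain libraries in hippocampus alone. Of 21 hippocampus markers, 13 were at least 4-fold higher in brain and 5 at least 4-fold higher in liver, and their summed level overlapped, at 588.9 to 963.3 TPM in liver and 755.2 to 860.1 TPM in brain.

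Brain replicate 3 stood apart in genes of the striatum. The 12 striatum markers summed to 4333 TPM in replicate 3 and to 318.9 and 362.4 TPM in replicates 1 and 2. Drd2, a dopamine receptor of striatal neurons, was at 1.29, 1.82 and 151.7 TPM in brain replicates 1, 2 and 3, and Adora2a, the adenosine receptor of the same cells, was at 2.57, 2.81 and 228.6 TPM. Penk, the precursor of enkephalin, was at 36.9, 63.2 and 1179 TPM. Cortex markers were lower in that library, at 565.6 TPM against 860.7 and 800.6, whereas the 21 hippocampus markers summed to 821.6 TPM against 755.2 and 860.1. Of these, Spink8 was at 4.3 TPM in replicate 3 against 18.1 and 23.3. Without brain replicate 3, 9 of 11 striatum markers tested were at least 4-fold higher in brain, against 10 of 11 with it. The log2 difference of Adora2a was -4.63 over all libraries (edgeR adjusted p = 0.0326) and 0.25 without brain replicate 3, and that of Penk -12.17 and -9.04. Drd2 was called over all libraries (edgeR adjusted p = 0.0281) and lost the call when any 1 of the liver libraries was left out, at a log2 difference of -12.36 against -12.26. Without brain replicate 3 it was called at -7.05 (edgeR adjusted p = 0.00244). The numbers of members at least 4-fold higher given below for the other lists moved by at most 2 without brain replicate 3.

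**Figure D2:**
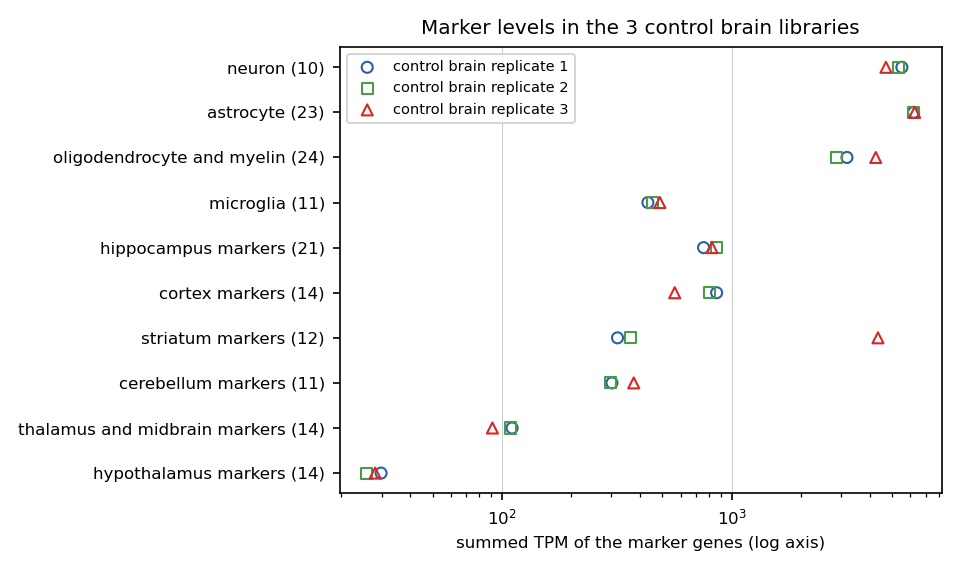
Summed TPM of marker genes (x axis, log scale) for 10 cell types and brain regions in each of the 3 control brain libraries, with the number of markers in brackets. Replicate 3 lies apart for striatum markers, at 4333 TPM against 318.9 and 362.4, and close to the others for astrocyte and microglia markers.

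Genes for plasma proteins were far higher in liver. All 34 plasma protein genes tested were at least 4-fold higher in liver, against a background of 16.5% of tested genes, with a median log2 difference of 14.81 under TMM, 14.56 with genes at 0 in brain set to their lower bound, and 11.94 on TPM. Alb, which encodes serum albumin, was at 43160, 47590 and 59810 TPM in the liver libraries and at 0, 0.205 and 0 TPM in the brain libraries. Ahsg (fetuin A) averaged 8624 TPM in liver and 0.0452 TPM in brain, and Gc (the vitamin D binding protein) 5579 and 0.0668 TPM. Serpina3k, a serine protease inhibitor, averaged 7226 TPM in liver with no count in brain, a difference of at least 539000-fold when brain is set to a floor of 3 counts over its 3 libraries. Liver and brain libraries did not overlap for any of the 34 genes, which was also so for 83.5% of all tested genes. The filter on low counts fixed the direction of 10 of the 34, which had no count in brain.

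Apolipoproteins and clotting factors followed the same pattern. Of 21 genes of lipoprotein particles and their secretion, 20 were at least 4-fold higher in liver, and of 23 tested genes of coagulation and fibrinolysis all 23 were. The filter fixed the direction of 3 of the 21 and 6 of the 23, which had no count in brain. Apoa1, the main protein of high-density lipoprotein, was at 17430, 12730 and 14480 TPM in liver and at 0.971, 0.677 and 0.147 TPM in brain, a log2 difference of 16.44 (SE 0.53, edgeR adjusted p = 3.36e-08). Apob, the scaffold of very low-density lipoprotein, averaged 479 TPM in liver with no count in brain. Apoe, which astrocytes are also known to make, kept a high level in brain: its TPM was 31700, 25360 and 29180 in liver and 2254, 2178 and 2437 in brain, a log2 difference of 5.48 (SE 0.27). The fibrinogen chains Fga and Fgb averaged 2149 and 2037 TPM in liver and had no count in brain. Plg, which encodes plasminogen, averaged 1639 TPM in liver and 0.0605 TPM in brain.

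Complement genes lay on both sides. Of 25 complement genes tested, 21 were at least 4-fold higher in liver, among them C3 (1735 TPM in liver, 0.218 TPM in brain), C8g (571 and 6.22 TPM) and the lectin Mbl2 (537 and 0.088 TPM). The filter fixed the direction of 4 of the 25, which had no count in brain. The 3 chains of C1q, the recognition protein of the classical pathway, went the other way. C1qa was at 30.05, 23.2 and 24.2 TPM in liver and at 119.7, 124 and 143.6 TPM in brain, C1qb averaged 17.03 and 110.7 TPM, and C1qc 11.3 and 58.9 TPM. Their log2 differences under TMM were -0.49, -0.87 and -0.55 (edgeR adjusted p = 0.022, 0.00156 and 0.0115). The call of C1qa was lost without liver replicate 2, liver replicate 3 or brain replicate 3, with adjusted p of 0.103, 0.108 and 0.0712, and that of C1qc without liver replicate 3, at 0.0579. Macrophages, microglia included, are a known source of C1q.

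Major urinary proteins, carriers of pheromones in mouse urine, were listed at very high levels in liver. All 20 tested genes were at least 4-fold higher there. Of these, 19 had no count in brain, so the filter on low counts fixed their direction. Mup3 was at 12610, 26050 and 22390 TPM in the liver libraries, and Mup20 at 2900, 7871 and 11330 TPM, so liver replicates differed among themselves by more than 2-fold and replicate 1 was the lowest in both. The genes of this cluster are near-identical copies, so the share given to any single copy is uncertain.

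Drug and steroid metabolism was higher in liver gene by gene, with a few brain members. Of 48 tested cytochrome P450 genes of families 1 to 4, 43 were at least 4-fold higher in liver and 3 at least 4-fold higher in brain. Among the 48, 20 had no count in brain and 1 none in liver, so the filter on low counts fixed their direction. Cyp2e1, which oxidizes ethanol and paracetamol, was at 7259, 6383 and 5673 TPM in liver and at 0.438, 0.0573 and 0.596 TPM in brain. Cyp3a11 and Cyp1a2 averaged 2176 and 863 TPM in liver with no count in brain. The brain members were Cyp4x1 (0 TPM in each liver library, and 18.2, 18.1 and 13.4 TPM in brain), Cyp2s1 (0.163 and 4.01 TPM on average) and Cyp1b1 (0.0967 and 2.33 TPM). Cyp4x1 differed at least 339-fold against a floor of 3 counts. Of 43 conjugation enzymes, which add glucuronic acid, sulfate, glutathione or acetyl groups, 41 were at least 4-fold higher in liver, Gstp1 among them (3159 and 445 TPM). The filter fixed the direction of 15 of the 43, which had no count in brain. Gstm5, a glutathione transferase known from brain and testis, was the single member called higher in brain, at 17.3 TPM in liver and 240.6 TPM in brain (log2 difference -1.97, SE 0.13). Members of these families have close copies too, so values of single genes carry that uncertainty.

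Bile acid synthesis and the urea cycle were higher in liver in nearly every member. Of 29 bile acid genes, 29 were called higher in liver under TMM and 27 at least 4-fold, and 27 were above 0 on TPM. The filter fixed the direction of 7 of the 29, which had no count in brain. Slc10a1, the carrier that takes bile acids up from blood, averaged 647 TPM in liver and 0.956 TPM in brain. Slc27a5, which activates bile acids for conjugation, averaged 673 and 0.548 TPM. Cps1, which makes carbamoyl phosphate from ammonia at the entry to the urea cycle, was at 563.5, 1178 and 908.5 TPM in liver and at 0.324, 0.396 and 0.0981 TPM in brain. Arg1, which releases urea, averaged 2329 and 0.295 TPM. Ass1 and Asl, which also serve arginine recycling in other cells, had a visible brain level, at 2116 and 41.3 TPM for Ass1 and 262 and 11.5 TPM for Asl. Glul, glutamine synthetase, a pericentral hepatocyte and astrocyte enzyme, changed direction with the scaling: 545 TPM in liver against 1276 TPM in brain, with a log2 difference of 0.61 under TMM and -1.23 on TPM.

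Amino acid breakdown, gluconeogenesis and fatty acid oxidation were mostly higher in liver. Of 56 genes of amino acid breakdown, 51 were at least 4-fold higher in liver and none in brain, with a median log2 difference of 6.38 under TMM and 4.38 on TPM. The filter fixed the direction of 4 of the 56, which had no count in brain. Tat, the tyrosine aminotransferase, was at 1621, 1435 and 1415 TPM in liver with no count in brain, and Hpd, a later step of tyrosine breakdown, averaged 1500 and 0.0883 TPM. Of 25 genes of gluconeogenesis and glycogen, 19 were at least 4-fold higher in liver. Pck1, the cytosolic enzyme that commits to glucose synthesis, averaged 930.5 TPM in liver and 0.0203 TPM in brain, and G6pc, which frees glucose for export, 527 TPM in liver with no count in brain. Pck2, the mitochondrial counterpart of Pck1, was called higher in brain, at 2.57 and 24.2 TPM (log2 difference -1.39, SE 0.33).

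Ketone bodies are made in liver and used in brain. Oxct1, which activates ketone bodies for burning, was at 0.815, 1.23 and 1.18 TPM in liver and at 267.9, 276.4 and 249.8 TPM in brain (log2 difference -6.12, SE 0.18, edgeR adjusted p = 2.19e-08). The 3 liver values lay far below the 3 brain values. Across the 41 genes of fatty acid oxidation and ketogenesis, 35 were at least 4-fold higher in liver and 2 in brain, which were Oxct1 and the peroxisomal importer Abcd2 (1.49 and 27.1 TPM). Ppargc1a, a coactivator that raises mitochondrial genes, averaged 1.87 TPM in liver and 23.3 TPM in brain.

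Of 19 iron handling genes, 12 were at least 4-fold higher in liver and 1 at least 4-fold higher in brain. Hamp, which encodes the iron hormone hepcidin, was at 5176, 3993 and 3363 TPM in liver and at 0.255, 0 and 0 TPM in brain. Trf, transferrin, is listed both with liver iron genes and with oligodendrocyte markers, and averaged 627 TPM in liver and 9.61 TPM in brain. Fth1, the ferritin heavy chain, averaged 2655 TPM in liver and 4765 TPM in brain, with a log2 difference of 0.99 under TMM and -0.85 on TPM.

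**Figure D3:**
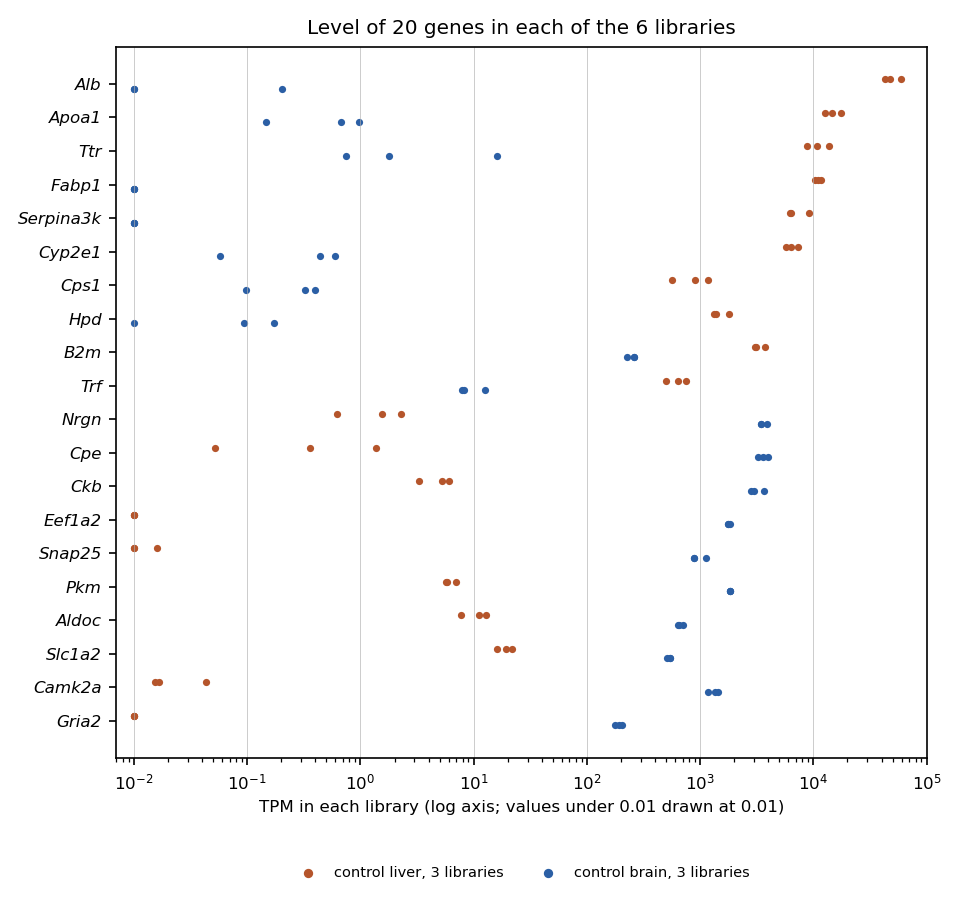
TPM of 20 genes in each of the 6 libraries (log axis, values under 0.01 drawn at 0.01), with liver in brown and brain in blue and 1 point per library. The genes were picked from those named in the text. For every gene shown, the 3 liver points and the 3 brain points do not overlap. The rule that named the abundant genes required this, and it held for 83.5% of all tested genes.

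Transcription factors separated the tissues as well. Of 31 regulators of hepatocyte identity, 26 were at least 4-fold higher in liver. The filter fixed the direction of 7 of the 31, which had no count in brain. Hnf4a, a nuclear receptor at the centre of the hepatocyte programme, was at 179.7, 188.1 and 231.8 TPM in liver with no count in brain, a difference of at least 34840-fold against a floor of 3 counts. Cebpa averaged 399 TPM in liver and 15.2 TPM in brain (log2 difference 6.54, SE 0.19). The members higher in brain were Nr2f1 (0.24 and 61.6 TPM) and Lhx2 (0.969 and 50.8 TPM), which are also known from cortex and hippocampus. Both were lowest in brain replicate 3.

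Of 56 tested regulators of neuron identity, 49 were at least 4-fold higher in brain, against a background of 29.5% of tested genes. Among the 56, 26 had no count in liver, so the filter on low counts fixed their direction. Myt1l, a zinc finger factor of neurons, was at 119.1, 134.1 and 130.3 TPM in brain with no count in liver. Mef2c, a factor of excitatory neurons, was at 452.8, 392.5 and 223.6 TPM in brain and averaged 0.277 TPM in liver. The activity-induced factor Egr3 averaged 255.4 TPM in brain and 0.459 TPM in liver, whereas its relative Egr1 averaged 377.7 TPM in liver and 489.7 TPM in brain, with a log2 difference of 1.45 under TMM and -0.4 on TPM. Rest, which represses neuron genes in other tissues by binding the RE1 element, was low in both, at 3.97 TPM in liver and 2.88 TPM in brain. It was called higher in liver under TMM, at a log2 difference of 2.29 (SE 0.18, edgeR adjusted p = 4.92e-06). On log2(TPM + 0.1) the difference was 0.44 and was not called (limma adjusted p = 0.0664). The values of Rest were known when it was chosen.

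The bases before the start sites of the genes that separated the tissues were read from RefSeq promoters on GRCm38.p6, a reference older than the mm39 build of the counts. Of 17849 tested genes, 12634 matched a promoter by symbol, and the first listed promoter of each was read over the 250 bases before the start. Genes higher in liver by at least 8 on the log2 scale had few CpG dinucleotides, with a median of 3, against 12 in genes higher in brain by at least 8 and 14 in all matched genes. These sets held 405 and 1066 genes. For genes at 0 in a tissue the fitted fold depends on the prior count, so the same measures are also given for the 4-fold sets, where the medians were 9 and 13 CpG.

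The HNF4 letters CAAAGTCCA, which the product of Hnf4a is known to prefer, were searched on both strands. They were in 12 of the 405 liver promoters (2.96%), in 4 of the 1066 brain promoters (0.375%) and in 0.404% of all matched promoters. In the 4-fold sets, of 2055 and 3578 genes, they were in 1.07% and 0.252%, and in the whole promoter table in 0.384%. The 22 liver genes of the 4-fold set with these letters include the relatives Cyp2c70, Cyp2c67, Cyp2c68, Cyp2c40 and Cyp2c69. Related genes were counted separately, so the matches are not independent of each other. The C/EBP letters TTGCNNAA were in 19.5%, 7.13% and 7.64%, and in 10.9% and 6.71% of the 4-fold sets. The letters TATAA, on the coding strand between 40 and 19 bases before the start, were in 11.9%, 3.38% and 2.49%, and in 5.4% and 2.77% of the 4-fold sets. The GC box letters GGGCGG had the reverse order, in 14.6%, 48.3% and 55.3%, with a smaller gap in the 4-fold sets, 47.1% and 52%. The RE1 letters CAGCACCNC were in 1.48%, 3% and 2.07%, and in 2.09% and 2.35% of the 4-fold sets. The motifs were chosen from general knowledge with the gene sets already known. These are counts of letters, given with no test, and a match does not show that a factor binds there.

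The 3 most abundant genes at least 4-fold higher in liver with the HNF4 letters are shown with those letters in capitals, to show where the letters stand. They follow from the letters and the level. Cyp3a11 and Cyp2c70 encode cytochromes P450, and Cd302 a C-type lectin. Cyp2c70 averaged 437.1 TPM in liver with no count in brain, and Cd302 326.9 and 29.2 TPM. The sequences are the 250 bases before the start, 5′ to 3′ along the gene, at chr5:145879855-145880104 (minus strand, Cyp3a11), chr19:40187287-40187536 (minus strand, Cyp2c70) and chr2:60284485-60284734 (minus strand, Cd302) on GRCm38.p6.
Cyp3a11: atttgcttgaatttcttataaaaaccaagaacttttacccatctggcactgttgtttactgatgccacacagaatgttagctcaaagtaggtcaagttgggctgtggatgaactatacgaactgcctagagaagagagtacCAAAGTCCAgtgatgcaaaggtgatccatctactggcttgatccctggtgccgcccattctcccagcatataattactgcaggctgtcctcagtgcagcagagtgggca
Cyp2c70: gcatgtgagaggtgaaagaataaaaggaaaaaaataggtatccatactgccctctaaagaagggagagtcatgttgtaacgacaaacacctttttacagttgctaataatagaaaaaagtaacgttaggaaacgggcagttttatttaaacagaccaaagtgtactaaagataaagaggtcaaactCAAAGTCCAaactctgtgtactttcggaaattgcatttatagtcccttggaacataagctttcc
Cd302: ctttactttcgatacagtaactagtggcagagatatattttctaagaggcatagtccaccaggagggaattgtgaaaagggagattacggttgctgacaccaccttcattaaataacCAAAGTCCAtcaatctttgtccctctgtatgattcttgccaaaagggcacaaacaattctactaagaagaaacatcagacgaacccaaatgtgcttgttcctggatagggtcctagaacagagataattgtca
The letters lie between 109 and 101 bases before the start in Cyp3a11, between 64 and 56 in Cyp2c70 and between 133 and 125 in Cd302.

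Among the most abundant genes at least 4-fold higher in brain were genes of synapses, peptide release and neuronal energy use. Nrgn, neurogranin, a postsynaptic calmodulin-binding protein, was at 3902, 3478 and 3451 TPM in brain and at 2.26, 0.625 and 1.54 TPM in liver (log2 difference -9.41, SE 0.42, edgeR adjusted p = 1.5e-07). Cpe, the carboxypeptidase that trims neuropeptides, averaged 3594 TPM in brain and 0.59 TPM in liver. Ckb, brain creatine kinase, averaged 3161 and 4.86 TPM. Eef1a2, the elongation factor of neurons and muscle, averaged 1789 TPM in brain with no count in liver, at least 18220-fold against a floor of 3 counts. Pcsk1n, a precursor of peptides in secretory granules, and Ddn, a dendritic protein, averaged 1093 and 1058 TPM in brain and also had no count in liver.

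Synaptic genes were low in liver as a group. Of 57 genes of the synaptic vesicle cycle, 53 were at least 4-fold higher in brain, and their summed level was 16440 to 18530 TPM in brain and 88.3 to 111.5 TPM in liver. The filter fixed the direction of 15 of the 57, which had no count in liver. Slc17a7, which loads glutamate into vesicles, was at 1481, 1612 and 1203 TPM in brain and at 0, 0.0773 and 0 TPM in liver. Snap25, a release protein, averaged 965 TPM in brain and 0.00529 TPM in liver. Vamp2, its partner on vesicles, had a measurable liver level, at 13, 15.1 and 16.4 TPM against 904.7, 881.7 and 898.5 TPM in brain. Slc17a8, another glutamate loader, was low in both tissues, at 2.57 TPM in liver and 3.03, 2.11 and 6.79 TPM in brain, with a log2 difference of 1.19 under TMM (edgeR adjusted p = 0.0253) and -0.44 on TPM. It was 1.83 without brain replicate 3, and the call was lost without liver replicate 1 or 2 or brain replicate 1 or 2.

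Of 46 postsynaptic scaffold and adhesion genes, 42 were at least 4-fold higher in brain. The filter fixed the direction of 11 of the 46, which had no count in liver. Camk2a, the calcium-dependent kinase of excitatory synapses, was at 1433, 1362 and 1166 TPM in brain and averaged 0.0251 TPM in liver. Thy1, a surface protein of neurons, averaged 1298 and 0.797 TPM. Gphn, gephyrin, which anchors inhibitory receptors and also makes the molybdenum cofactor in other tissues, averaged 28.6 TPM in liver and 65.3 TPM in brain, with a log2 difference of 0.64 under TMM and -1.19 on TPM.

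Receptors and channels were higher in brain in most members of each family tested. Of 29 ionotropic glutamate receptor genes, 28 were at least 4-fold higher in brain, and of 19 GABA and glycine receptor genes 18 were. The filter fixed the direction of 11 of the 29 and 11 of the 19, which had no count in liver. Gria2, which sets the calcium permeability of AMPA receptors, was at 191.1, 203.3 and 176.4 TPM in brain with no count in liver. Grik5, a kainate receptor subunit, was the glutamate receptor gene with a visible liver level among those named, at 10.2 TPM against 224.4 TPM (log2 difference -2.63, SE 0.2).

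All 12 tested sodium channel genes, all 17 tested calcium channel genes and 33 of 34 tested potassium channel genes were at least 4-fold higher in brain. Of these, 5 sodium, 2 calcium and 15 potassium channel genes had no count in liver, so the filter fixed their direction. Not tested were 2 sodium and 1 calcium channel genes. Scn2a, a sodium channel of axons, averaged 146.2 TPM in brain with no count in liver. Cacna1a, the pore of the P/Q-type calcium channel, averaged 64.6 and 0.139 TPM. The exception was Hcn3, a pacemaker channel, which was at 25.6, 36.5 and 34.1 TPM in liver and at 13.2, 15.5 and 16.6 TPM in brain (log2 difference 2.92 under TMM, SE 0.17, and 1.08 on TPM).

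Neuropeptide genes were at or near 0 in liver. All 26 tested were at least 4-fold higher in brain, and 5 of the 31 listed did not pass the filter on low counts. Of the 26, 17 had no count in liver, so the filter fixed their direction. Cck and Sst, the precursors of cholecystokinin and somatostatin, averaged 1438 and 1230 TPM in brain. Cytoskeleton genes such as Kif5a, a motor of axonal transport (1724 TPM in brain, 1.65 TPM in liver), and Tuba1a, a tubulin (1585 and 2.92 TPM), were among the 29 of 30 genes in their list at least 4-fold higher in brain. The filter fixed the direction of 7 of the 30, which had no count in liver.

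RNA-binding proteins that set splicing differed in both directions. Of 22 neuronal RNA-binding protein genes, 22 were called higher in brain and 18 at least 4-fold. The filter fixed the direction of 5 of the 22, which had no count in liver. Rbfox3, the antigen NeuN, averaged 201.6 TPM in brain and 0.109 TPM in liver, and Celf4 445.9 and 0.143 TPM. Of 12 tested liver and non-neuronal RNA-binding protein genes, 6 were at least 4-fold higher in liver and 2 were called higher in brain, with a median log2 difference of 1.39 under TMM and -0.45 on TPM. Their summed level was 232 to 282.4 TPM in liver and 594.2 to 605.9 TPM in brain. A1cf, which guides the editing of Apob mRNA, averaged 32.4 TPM in liver with no count in brain, and the editing enzyme Apobec1 averaged 11.6 and 1.74 TPM. Esrp2, a splicing factor of epithelia, averaged 44.5 and 0.179 TPM. Ptbp1, which holds neuronal exons silent in other cells, was at 24.7, 37.6 and 38.6 TPM in liver and at 19.8, 22.7 and 22.1 TPM in brain, and its neuronal relative Ptbp2 averaged 5.42 TPM in liver and 105.9 TPM in brain.

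Glial genes were higher in brain with named exceptions in the liver. Of 24 oligodendrocyte and myelin genes, 20 were at least 4-fold higher in brain and only Trf at least 4-fold higher in liver. Of 23 astrocyte genes, 17 were at least 4-fold higher in brain. The filter fixed the direction of 7 of the 24 and 4 of the 23, which had no count in liver. Slc1a3, a glutamate transporter, averaged 179.5 TPM in brain and 0.0139 TPM in liver, and Slc1a2, which pericentral hepatocytes also express, 532.8 and 19.1 TPM. Aldh1l1, a folate enzyme used as an astrocyte marker, was at 695.9, 643.2 and 419.3 TPM in liver and at 38.8, 35.7 and 34.5 TPM in brain (log2 difference 5.85, SE 0.27). Clu, clusterin, averaged 887 TPM in liver and 602 TPM in brain. Of 11 microglia genes, 8 were at least 4-fold higher in brain, such as P2ry12, a receptor for nucleotides (41.6 TPM in brain, 0.126 TPM in liver).

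Markers of liver cells other than hepatocytes were at low levels and differed by cell type. Of 10 Kupffer cell genes, 9 were at least 4-fold higher in liver, and Clec4f, a lectin of those macrophages, was at 23.3, 18.9 and 19.1 TPM in liver with no count in brain. Of 12 tested genes of sinusoidal endothelium, 9 were at least 4-fold higher in liver, including the scavenger receptor Stab2 (5.58 and 0.279 TPM). Of 16 genes of stellate cells and portal fibroblasts, 8 were at least 4-fold higher in liver and 4 were called higher in brain, and their sums overlapped, at 162.3 to 205.4 TPM in liver and 137.9 to 191.3 TPM in brain. Cldn5, the tight junction protein of the blood-brain barrier, averaged 83.6 TPM in brain and 6.09 TPM in liver (log2 difference -1.95, SE 0.22). Red cell genes varied within both groups, with Hba-a1 at 442.1, 111 and 210.2 TPM in liver and 398.3, 266.1 and 676.1 TPM in brain. Its log2 difference was 1.03 under TMM, where it was not called (edgeR adjusted p = 0.0962), and -0.93 on TPM. Under TMM it was called higher in liver without liver replicate 2 or without brain replicate 3. The log2 differences were then 1.42 and 1.46 (edgeR adjusted p = 0.0273 and 0.0439), opposite in sign to the TPM value over all libraries.

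In most of the pairs chosen, related genes exchanged places between the tissues. In 28 pairs of related genes, with the first gene known from liver and the second from brain, the first gene was called higher in liver and the second higher in brain in 21 pairs, and both at least 4-fold in 18. Of all tested genes, 34.4% were called higher in liver and 45.6% in brain, and 16.5% and 29.5% at least 4-fold. The pairs were chosen for this contrast, with earlier results of these data known, so their count describes them and is not a test. In 26 pairs the first gene made up more than 50% of the summed TPM of the pair in every liver library and less than 50% in every brain library. Because it is a share of the pair within a library, it does not depend on the scaling between libraries. It is a share of TPM and so keeps the length correction, and shares of counts were not computed.

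Glucose metabolism exchanged at uptake and pyruvate kinase. Hk1, the high-affinity hexokinase, averaged 0.287 TPM in liver and was at 179.4, 187 and 158.6 TPM in brain. The transporters Slc2a2 and Slc2a3 averaged 187.4 and 0.111 TPM in liver and 0.248 and 85.3 TPM in brain. Aldoc averaged 10.5 TPM in liver and 664.8 TPM in brain. For pyruvate kinase, Pklr averaged 157 TPM in liver and 0.0374 TPM in brain, and Pkm 6.13 and 1825 TPM.

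In some pairs 1 member differed far more than the other. Ldhb, the lactate dehydrogenase subunit of oxidative tissue, averaged 1.95 TPM in liver and 877.2 TPM in brain, whereas Ldha averaged 384.5 and 347 TPM, with a log2 difference of 1.98 under TMM (edgeR adjusted p = 1.89e-06) and 0.15 on TPM. Eno2, neuron-specific enolase, averaged 0.0819 and 716.7 TPM, whereas Eno1 averaged 214.3 TPM in liver and 520.3 TPM in brain, with a log2 difference of 0.55 under TMM and -1.28 on TPM. Pfkl made up 98.2% of its pair with Pfkp in liver and 53.2% in brain, so the liver-named gene was the larger part in both. Cdh1 made up 37.5% of its pair with Cdh2 in liver and 5.1% in brain. Cdh1 averaged 10.1 TPM in liver and 2.74 TPM in brain (log2 difference 3.72, SE 0.2), and Cdh2 16.8 and 51.2 TPM, with a log2 difference of 0.23 under TMM, where it was not called (edgeR adjusted p = 0.236), and -1.58 on TPM.

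Pairs of lipid and hormone metabolism exchanged as well. Fabp1, the fatty acid carrier of hepatocytes, averaged 10970 TPM in liver with no count in brain, and Fabp7, that of glial cells, 1.04 and 39.9 TPM. Scd1 and Scd2, which desaturate fatty acids, averaged 2718 and 1.43 TPM in liver and 112.9 and 838.4 TPM in brain. Cholesterol leaves the liver through Cyp7a1 and the brain through Cyp46a1: Cyp7a1 was at 24, 27.1 and 45.3 TPM in liver with no count in brain, and Cyp46a1 was at 6.13, 4.07 and 5.11 TPM in liver and at 385.8, 386 and 392.4 TPM in brain. Dio1 and Dio2, which activate thyroid hormone, averaged 67.6 and 0 TPM in liver and 0.0354 and 35.7 TPM in brain.

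**Figure D4:**
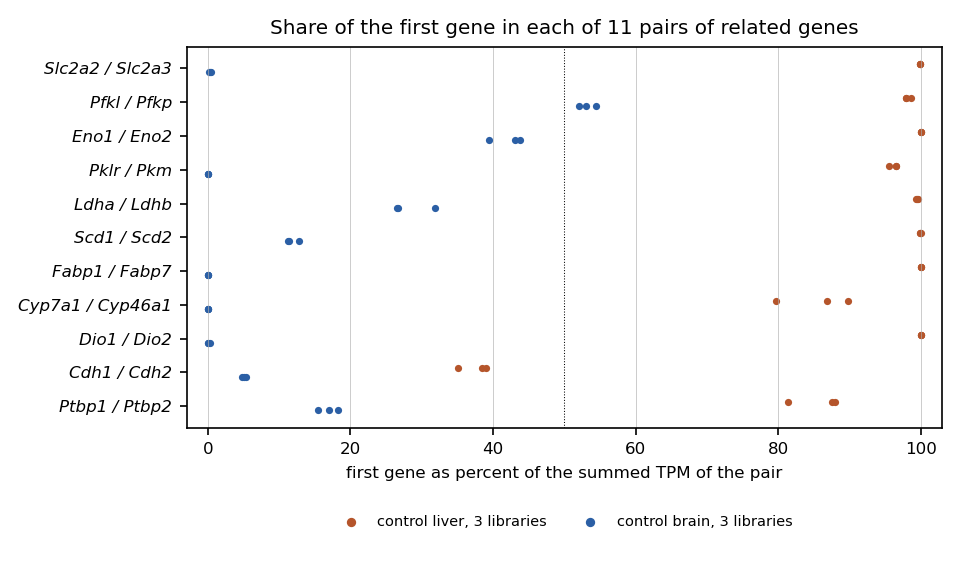
Share of the first gene in the summed TPM of each of 11 of the 28 pairs of related genes (x axis, percent), with 1 point per library, liver in brown and brain in blue, and a dotted line at 50%. Liver and brain points lie on opposite sides of the line in 9 of these pairs; the pairs Pfkl and Pfkp and Cdh1 and Cdh2 are the exceptions.

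Of 25 glycolysis genes, 11 were at least 4-fold higher in brain and 3 in liver. Under TMM 16 were called higher in brain and 9 higher in liver, and the summed level was 10360 to 10580 TPM in brain and 1662 to 1764 TPM in liver. Aldoa averaged 2028 TPM in brain and 99.3 TPM in liver. Gapdh was listed at only 47.8 TPM in liver and 16.5 TPM in brain, far below Aldoa and Pkm in brain. It has many near-identical processed copies in the mouse genome, so its value here is uncertain.

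Antigen presentation was higher in liver. All 14 tested genes of major histocompatibility complex class I were called higher in liver under TMM, 13 at least 4-fold, and 13 were above 0 on TPM. Their median log2 difference was 4.85 under TMM and 3 on TPM. B2m, the light chain that all class I molecules share, was at 3034, 3144 and 3706 TPM in liver and at 262.6, 262.2 and 227.3 TPM in brain. H2-K1 averaged 1117 TPM in liver and 33.5 TPM in brain. H2-Q10, a secreted class I molecule known from liver, averaged 1190 and 0.016 TPM. Class I genes are close copies of each other, which makes single values uncertain. Of 28 tested interferon-stimulated genes, 21 were at least 4-fold higher in liver under TMM (19 without brain replicate 3), among them Bst2 (405.6 and 8.23 TPM) and Irf7 (18.6 and 1.33 TPM), and Ifit2 was higher in brain (0.481 and 10.1 TPM).

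Imprinted genes, expressed from a single parental copy, were mostly higher in brain. Of 33 tested, 30 were called higher in brain (28 without brain replicate 3) and 23 at least 4-fold. Meg3, a long noncoding RNA, was at 1.29, 2.68 and 1.15 TPM in liver and at 731.1, 867.6 and 755.7 TPM in brain, and Snrpn, a splicing protein gene of the Prader-Willi region, averaged 3.43 and 437.1 TPM. Ndn, of the same region, was at 229.7, 505.9 and 490.9 TPM in brain, so brain replicate 1 was the low one. Ddc, which makes dopamine and serotonin, was higher in liver, at 24.1 and 4.72 TPM. Dcn, decorin of connective tissue, was called in liver under TMM, but its TPM overlapped between the tissues, at 46.3, 65.2 and 73.6 in liver and 34.2, 62.8 and 11.8 in brain. Among other long noncoding RNAs, Miat averaged 203.2 TPM in brain and 0.00386 TPM in liver, Neat1 averaged 44.3 TPM in liver and 18.9 TPM in brain, and Malat1 averaged 152.6 and 541.2 TPM with a log2 difference of 0 under TMM and -1.88 on TPM. Malat1 was chosen after its values were seen.

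Of 18 tested genes of steroid hormone receptors and activation, 10 were at least 4-fold higher in liver, 2 were at least 4-fold higher in brain and 3 were not called. Hsd11b1, which regenerates active glucocorticoid, was at 256.3, 300.4 and 320.1 TPM in liver and at 16, 11.2 and 6.56 TPM in brain (log2 difference 6.53, SE 0.35). Nr3c2, the mineralocorticoid receptor, averaged 3.58 TPM in liver and 28.6 TPM in brain (log2 difference -1.18, SE 0.2). Nr3c1, the glucocorticoid receptor, averaged 16.1 and 60.4 TPM, with a log2 difference of -0.07 under TMM (edgeR adjusted p = 0.749) and -1.93 on TPM, and was chosen after its values were seen. Igf1, the growth factor that growth hormone induces in liver, was at 106.9, 108.1 and 106.3 TPM in liver and averaged 2.47 TPM in brain. Igfbp1, which fasting and glucocorticoid raise, was at 122.3, 60.2 and 277.7 TPM in the liver libraries, a spread over 4-fold within the group.

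Clock genes showed no common direction. Of 20 tested, 3 were at least 4-fold higher in liver and 3 in brain, with a median log2 difference of -0.01 under TMM and -1.87 on TPM. Without brain replicate 3, 6 rather than 9 were called higher in liver. Arntl, the positive arm of the clock, was at 1.71, 1.21 and 2.3 TPM in liver and at 41, 39.4 and 40.2 TPM in brain, and Npas2, which pairs with it in forebrain, averaged 0.135 and 32.5 TPM. Dbp, a clock output, was close in TPM, at 77, 70.2 and 62.3 TPM in liver and 75.5, 68.8 and 88.4 TPM in brain, with a log2 difference of 1.68 under TMM and -0.15 on TPM.

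Several large housekeeping groups changed direction with the scaling. All 79 cytosolic ribosomal protein genes were called higher in liver under TMM, but their median log2 difference went from 1.82 under TMM to 0.78 with library size alone and -0.01 on TPM, and 42 of the 79 changed sign. The nuclear-encoded subunits of the respiratory chain went from 1.54 to 0.5 and -0.31, and the proteasome from 1.36 to 0.32 and -0.47. The median of the 13 mRNAs of the mitochondrial genome stayed above 0, at 2.03, 0.99 and 0.18, and 2 of the 13 changed sign on TPM. Of these, mt-Co1 was at 36540, 34900 and 34350 TPM in liver and at 29520, 30490 and 33510 TPM in brain. Cholesterol synthesis genes went from 2.42 to 1.38 and 0.56, with Hmgcs1 at 201.7 TPM in liver and 314 TPM in brain (log2 difference 1.19 under TMM and -0.66 on TPM). Rplp1, a ribosomal stalk protein, averaged 2411 TPM in liver and 3101 TPM in brain, with a log2 difference of 1.47 under TMM and -0.37 on TPM.

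Genes that TMM placed level between the tissues were higher in brain by TPM. Ubb, a ubiquitin precursor, was at 411.5, 436.4 and 581.7 TPM in liver and at 1795, 1892 and 1871 TPM in brain, with a log2 difference of -0.14 under TMM (edgeR adjusted p = 0.413) and -1.98 on TPM. Gabarapl1, an autophagy protein, averaged 327 TPM in liver and 1169 TPM in brain, with values of -0.02 and -1.86. By limma-voom, 1068 tested genes had a 95% interval within 0.58 of 0 on the log2 scale under TMM.

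**Figure D5:**
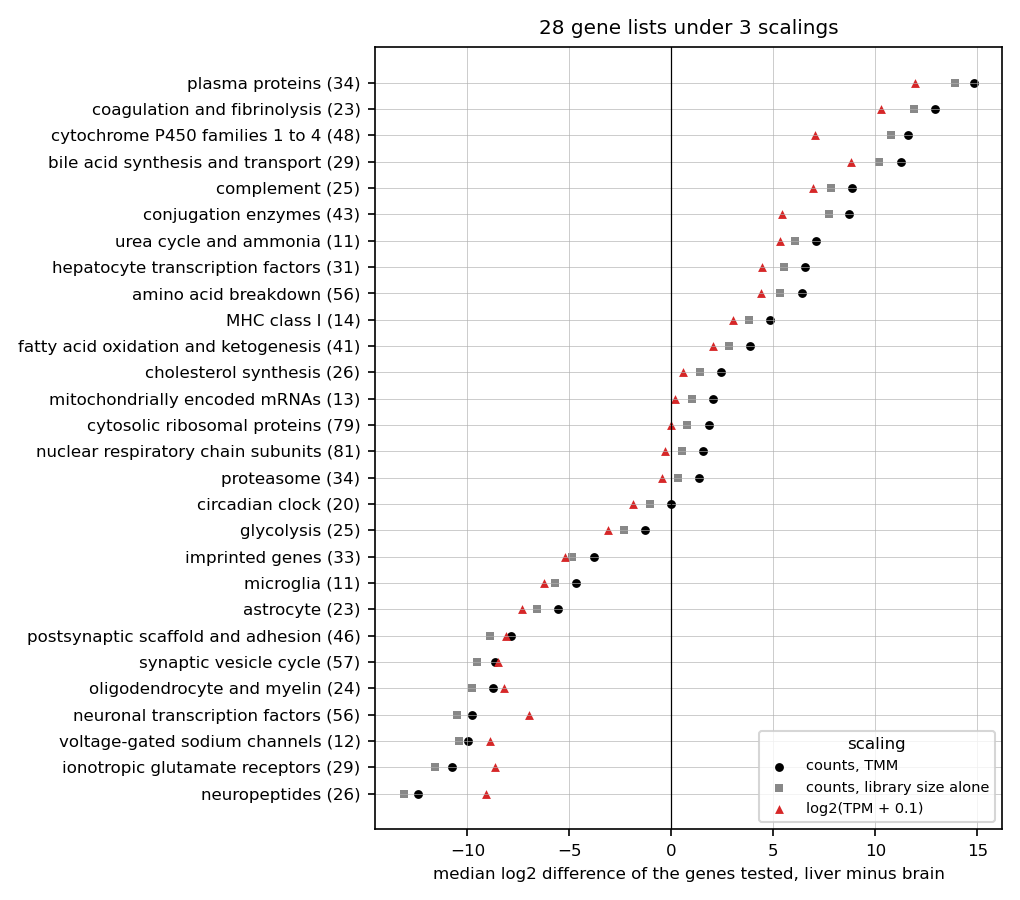
Median log2 difference, liver minus brain (x axis), of 28 gene lists under TMM (black circles), library size alone (grey squares) and log2(TPM + 0.1) (red triangles), with the number of genes tested in brackets. Lists at the top and bottom keep their side under all 3 scalings, while ribosomal, respiratory chain and proteasome genes in the middle lie on both sides of 0.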

How the data were processed

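Aligner and counting tool were not given in the sources used here, and the build is mm39 per the submitters' processing notes. The authors deposited gene counts and TPM for each library in a table of 34932 genes, and 42 of its 54 value columns, from other libraries, were not used. Genes without a symbol (518) were tested but not named. Counts were filtered with filterByExpr, scaled by TMM and tested with edgeR 4.0.16 (R 4.3.3, quasi-likelihood, Benjamini-Hochberg adjusted p under 0.05). The deposited TPM are printed as levels, and log2(TPM + 0.1) served as an alternative with limma 3.58.1. DESeq2 1.42.0 was another. Depth was 31870666 to 36497096 counts per library, which limits precision only for low genes, and replicates differed beyond counting error. A gene without a count in a tissue was set to 3 counts over its 3 libraries for a lower bound. On simulated counts (17735 genes, 200 changed), 51% of 2-fold and 83% of 4-fold changes were recovered, with 13 false among 147 calls. In the liver and brain libraries 80.1% of tested genes were called. Recovery and false calls were not tested with that large a share of changed genes, the spread of the liver libraries or their TMM factors.

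Named genes were the 15 most abundant at least 4-fold different genes with groups apart in each direction, the 10 with the largest change at a CPM of 10 or more, up to 6 leading members and 4 opposite members of each of 60 lists, 28 pairs, the hepatocyte and neuron markers, and the 10 most abundant of the genes alike in both tissues; not all are printed. The RE1 letters were shortened from a longer form after that had been searched, and some genes and results are not reported here. The comparison, lists, pairs and rules were chosen with earlier results of these data known. The labels do not say that a sample code shared by both tissues marks an animal, and p-values measure only the spread between these samples.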

Additional observations from a re-analysis of the deposited data

How the results depend on the processing

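Library size alone and limma on the TPM scales moved counts by over 1.5 times. The TPM alternatives change scaling, length correction and test together. Genes higher in liver went from 6143 to 3683 with library size alone, 2498 on log2(TPM + 1) and 2500 on log2(TPM + 0.1), and those at least 4-fold higher in liver from 2952 to 1951, 1147 and 1447. Genes higher in brain went from 8147 to 13511 and 13524 on the TPM scales, and those at least 4-fold higher from 5263 to 9214 on log2(TPM + 0.1). The other alternatives stayed within 1.5 times. Leaving out each library gave 13649 to 14616 called genes, 5841 to 6262 higher in liver, 7808 to 8354 higher in brain, 3035 to 3159 at least 4-fold higher in liver and 5341 to 5595 in brain. DESeq2 called 6648 and 8869, and counts halved, chosen after seeing that low counts are mostly even, 5906 and 7643. With the sample code as a replicate block, 5898 and 7930 genes were called, Hba-a1 was called (0.89, edgeR adjusted p = 0.0434) and Adora2a was not (-1.97, adjusted p = 0.218). Deviations of samples with the same code correlated at 0, 0.048 and 0.024, and of other samples at -0.053 to 0.026. With 3 libraries a tissue and 2 different organs, these values cannot tell whether a code marks an animal, which is not known. The main fit used tissue alone, without the codes as pairs.

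Of 151 named genes, 11 changed sign under an alternative with a call on at least 1 side. With library size alone, log2(TPM + 1) and log2(TPM + 0.1), Glul was at -0.43, -1.23 and -1.23, Fth1 at -0.05, -0.85 and -0.85, Gphn at -0.4, -1.17 and -1.19, Eno1 at -0.49, -1.28 and -1.28, and Cdh2 at -0.81, -1.53 and -1.58. On the TPM scales alone, Egr1 was at -0.4 and -0.4, Slc17a8 at -0.37 and -0.44, Dbp at -0.15 and -0.15, Hmgcs1 at -0.66 and -0.66, and Rplp1 at -0.37 and -0.37. Adora2a was at -4.63 and ranged over the alternatives from -5.66 with library size alone to 0.25 without brain replicate 3, and over left-out libraries from -5.21 to 0.25. Hba-a1, not called at 1.03, was at -0.02 with library size alone and -0.93 on log2(TPM + 0.1), again not called. Precision is limited by the 3 libraries a group.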

Other observations

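Genes of the 2 poles of the liver lobule were mostly higher in liver. All 14 periportal hepatocyte genes were at least 4-fold higher in liver, with a median log2 difference of 12.52 under TMM and 10 on TPM. So were 10 of 14 pericentral genes, with medians of 6.16 and 3.25. Of the 14 pericentral genes, 2 were called higher in brain, 1 of them at least 4-fold. Of 22 genes of brain endothelium and its barrier, 10 were at least 4-fold higher in brain and 3 in liver. Of 11 tested cholangiocyte genes, 9 were at least 4-fold higher in liver and 1 at least 4-fold higher in brain. The 9 tested genes of oligodendrocyte precursors summed to between 475.2 and 512.9 TPM in brain and between 2 and 2.58 TPM in liver.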
